A study of Mus musculus with 16 samples.

Results

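A total of 778 autosomal promoters carried an RNA polymerase II (Pol II) peak in wild type (WT) mouse embryonic fibroblasts (MEFs) and had no Pol II peak nearby in Atxn7l3-/- (KO) MEFs. They were chosen by position alone, from 2 deposited peak lists: a WT MEF Pol II peak within 1000 bp of the transcription start site (TSS) of a protein-coding gene, and no KO MEF Pol II peak within 5000 bp of it. Of 20807 autosomal protein-coding genes in the GENCODE M21 annotation, 11497 had a WT MEF Pol II peak at the promoter. The 778 promoters without a KO peak were thus 6.77% of those with a WT peak (95% Clopper-Pearson interval 6.31% to 7.24%), 10576 promoters kept a KO peak within 1000 bp, and the remaining 143 had their nearest KO peak between 1000 and 5000 bp away. Intervals given here and in what follows cover counting error only.

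ATXN7L3 is the adaptor protein that activates USP22, USP27X and USP51, the enzymes that remove monoubiquitin from histone H2B. USP22 works within the SAGA coactivator complex. Monoubiquitylated H2B (H2Bub1) is laid down along transcribed gene bodies as Pol II moves through them, and Pol II itself gathers just downstream of the start site of active genes before it is released into the body. MEFs are mesenchymal cells that secrete and remodel the extracellular matrix, and they keep active many of the signalling and positional genes of the embryonic region they come from, such as the Hox genes.

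The study profiled Pol II and H2Bub1 by ChIP-seq in MEFs and mouse embryonic stem cells (mESCs) of genotype Atxn7l3+/+ (WT) or Atxn7l3-/- (KO), on the DBA/2 x C57BL/6 background. No cells received a treatment, MEFs were derived at E10.5 with individual embryos cultured apart, and mESCs were kept in serum, LIF and the inhibitors PD0325901 and CH99021 (CHIR99021 in the study's methods). Each combination of cell type, genotype and antibody was 1 library, so 8 peak lists were used, 8 further samples (inputs and the Ser2P form of Pol II) were not analysed here, and no difference between genotypes has a replicate check. The study described the KO MEF cultures as holding rounded cells, KO embryos were already abnormal at the stage of derivation, and the WT and KO MEFs came from different embryos.

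The MEF lists held 45870 WT and 32232 KO Pol II peaks, and their read depth is unknown. Fibroblast markers were present in both: 11 of 12 had a promoter peak in WT MEFs and 11 of 12 in KO MEFs, among them Col1a1, Col1a2, Pdgfra and Vim, and none of the 12 was among the 778. The fold was lower in KO MEFs at all of these shared markers but Dcn, for example 21.9 and 8.80 at Pdgfrb and 18.5 and 5.84 at Prrx1. Of 12 epithelial and mesothelial markers, 0 had a peak in WT MEFs and 4 had one in KO MEFs, namely Upk1b, Upk3b, Wt1 and Msln, with folds from 10.2 to 38.6. Of 4 Y-linked genes looked up by name (Uty, Kdm5d, Ddx3y and Eif2s3y), 4 had a WT MEF Pol II promoter peak and 0 a KO one, so that the sex of the embryos and the genotype cannot be told apart. The part of these differences in the results below was not tested, and a change within cells and a change in the cells present cannot be told apart. The promoter of Atxn7l3 itself (chr11:102289300-102296631, minus strand, mm10) kept its peak, at 20.9-fold in WT and 23.4-fold in KO MEFs. A peak there checks neither the deletion nor the protein.

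The promoters with the highest WT peaks of the 778 are shown first, because the start sites of matrix genes lead the group and several hold a TATA sequence. The 250 bases before the TSS were read from GRCm38 (mm10) and are given 5′ to 3′ in the direction of transcription. Capitals mark TATAAA or its reverse complement TTTATA, searched on both strands, and positions count back from the TSS with -1 as the base before it. The 6 genes of highest WT fold are followed by Col14a1, the collagen gene of the group with the motif in this stretch. Their positions are chr3:54360859-54361108 (plus strand) for Postn, chr6:136875824-136876073 (minus) for Mgp, chr13:49544193-49544442 (plus) for Aspn, chr3:141464966-141465215 (plus) for Unc5c, chr1:90203730-90203979 (plus) for Ackr3, chr1:72874885-72875134 (minus) for Igfbp5 and chr15:55307500-55307749 (plus) for Col14a1.
Postn: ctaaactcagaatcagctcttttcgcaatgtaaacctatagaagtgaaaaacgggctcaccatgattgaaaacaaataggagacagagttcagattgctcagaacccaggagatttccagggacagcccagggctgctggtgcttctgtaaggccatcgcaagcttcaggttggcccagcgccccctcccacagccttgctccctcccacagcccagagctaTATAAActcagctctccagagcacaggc
Mgp: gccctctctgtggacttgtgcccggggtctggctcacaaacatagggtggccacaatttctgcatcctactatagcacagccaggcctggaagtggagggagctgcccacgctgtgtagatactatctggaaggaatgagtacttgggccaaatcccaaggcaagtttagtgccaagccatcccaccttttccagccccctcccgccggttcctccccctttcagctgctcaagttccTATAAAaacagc
Aspn: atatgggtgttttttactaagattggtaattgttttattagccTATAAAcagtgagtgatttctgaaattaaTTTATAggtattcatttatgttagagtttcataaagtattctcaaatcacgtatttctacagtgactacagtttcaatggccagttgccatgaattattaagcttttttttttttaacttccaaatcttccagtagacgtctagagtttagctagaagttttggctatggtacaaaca
Unc5c: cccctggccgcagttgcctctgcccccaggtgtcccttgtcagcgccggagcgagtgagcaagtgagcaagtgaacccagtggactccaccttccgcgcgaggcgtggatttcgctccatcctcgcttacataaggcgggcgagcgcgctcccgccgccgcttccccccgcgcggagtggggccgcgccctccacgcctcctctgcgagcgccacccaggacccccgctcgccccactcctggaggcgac
Ackr3: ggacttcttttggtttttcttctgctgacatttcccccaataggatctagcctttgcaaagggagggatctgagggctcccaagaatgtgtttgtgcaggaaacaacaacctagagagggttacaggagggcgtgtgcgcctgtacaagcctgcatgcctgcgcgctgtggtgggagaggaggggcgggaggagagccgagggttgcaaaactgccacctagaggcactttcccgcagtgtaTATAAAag
Igfbp5: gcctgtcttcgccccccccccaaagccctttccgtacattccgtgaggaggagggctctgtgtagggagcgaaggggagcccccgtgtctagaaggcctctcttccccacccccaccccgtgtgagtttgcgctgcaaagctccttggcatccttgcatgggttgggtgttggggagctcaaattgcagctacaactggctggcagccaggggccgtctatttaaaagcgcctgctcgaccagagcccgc
Col14a1: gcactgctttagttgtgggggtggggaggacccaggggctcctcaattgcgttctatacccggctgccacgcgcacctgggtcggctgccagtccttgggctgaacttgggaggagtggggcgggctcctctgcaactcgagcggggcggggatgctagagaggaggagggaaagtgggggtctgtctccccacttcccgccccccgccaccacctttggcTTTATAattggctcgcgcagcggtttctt

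TATAAA started at -28 in Postn, at -12 in Mgp, at -207 in Aspn and at -8 in Ackr3, and TTTATA started at -178 in Aspn and at -29 in Col14a1. The stretches of Unc5c and Igfbp5 held neither. Unc5c was the most CpG-rich of them, with 28 CpG dinucleotides and 71.6% G or C in the 250 bases, against 4 CpG in Postn, 4 in Mgp and 2 in Aspn. A match describes the sequence and does not show that a factor binds it.

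The WT Pol II peaks at these 778 promoters were mostly weak, and a small number were among the strong peaks of the MEF genome. The fold, which is the enrichment that the MACS2 peak caller gives a peak over its local background, had a median of 4.40 (quartiles 3.47 and 6.22, range 1.68 to 26.6) at the 778, against a median of 13.99 at the 10576 promoters that kept a KO peak. The WT peaks were narrower, with a median width of 600 bp against 1495 bp. Since the rule used these lists, these values describe the choice and carry no test. When the 11497 promoters were ranked by WT fold and cut into 5 equal groups, 656 of 2300 (28.5%) lacked a KO peak in the lowest group, 82 of 2299 (3.57%) in the next, and then 24 (1.04%), 10 (0.435%) and 6 of 2300 (0.261%) in the highest. Above the lowest group, 122 of 9197 promoters (1.33%) were without one. A peak missing from a list is a peak below the caller's threshold and not an occupancy of 0.

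**Figure D1:**
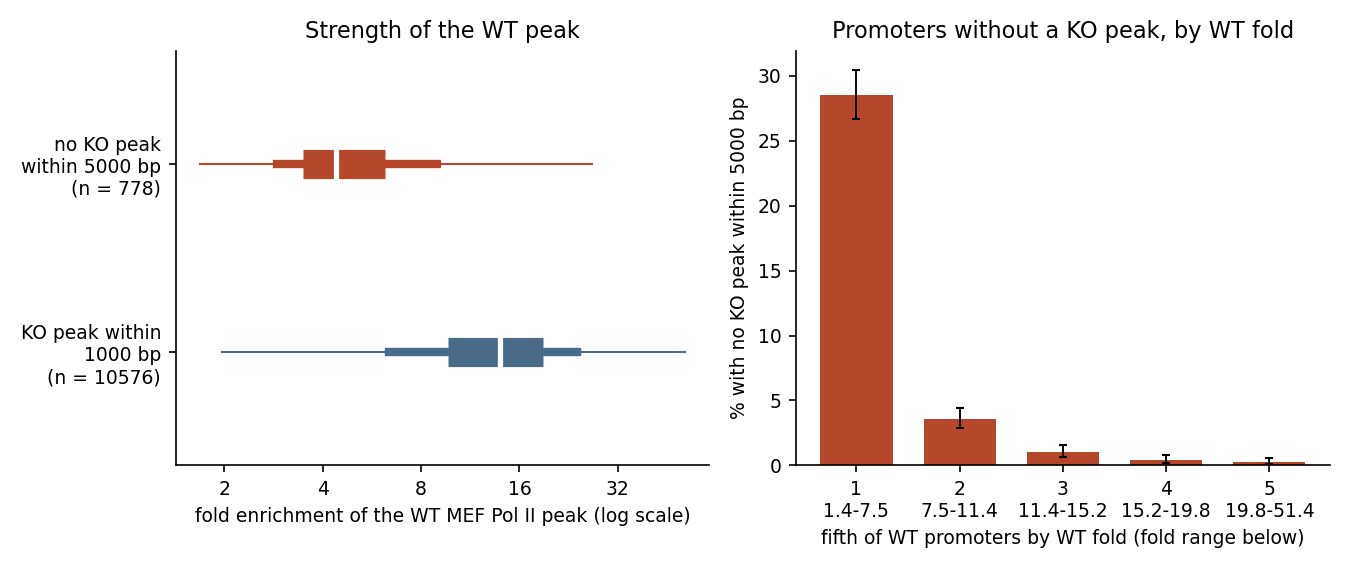
Left, fold of the WT MEF Pol II peak (log axis) for promoters with no KO peak within 5000 bp and for those that kept one within 1000 bp; thin line, range; thick line, 10th to 90th percentile; box, quartiles; white mark, median. Right, percent of promoters without a KO peak in each group of WT fold, with 95% Clopper-Pearson intervals, falling from 28.5% in the lowest group to 0.261% in the highest.

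In KO MEFs the nearest remaining peak was mostly far away. The nearest KO peak lay at a median of 57480 bp from the TSS (range 5194 to 5993705 bp), and 422 of the 778 promoters had none within 50000 bp. Just inside the limit stood Mroh6 at 5194 bp, Gm42715 at 5245 bp and Fkbp5 at 5256 bp, and just outside it Vtn at 4984 bp, Hoxa9 at 4943 bp and Gcnt2 at 4854 bp. On the WT side, Gpd1, Gpr182 and Dll3 had their WT peak 990, 989 and 974 bp from the TSS, whereas Tank, Tmem52b and C2cd4a missed the limit at 1003, 1006 and 1015 bp. The 778 promoters lay under 760 distinct WT peaks, and 720 had the summit within 1000 bp of the TSS. For 74 genes, a KO peak lay within 5000 bp of another annotated TSS of the same gene, so that there the missing peak concerns 1 of several start sites. Phldb2, Tbx15, Tns1, Runx2 and Gnas were of this kind.

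The highest WT folds were at genes of several kinds, with matrix genes as the first 3. Postn, which encodes the matrix protein periostin, led the group with a WT fold of 26.6 over a peak of 7316 bp, its nearest KO peak 331207 bp away, and no mESC Pol II peak at the promoter in either genotype. Mgp, the matrix Gla protein that holds back calcification, followed at 23.4-fold, with the nearest KO peak 46122 bp away. Aspn, the small leucine-rich proteoglycan asporin, stood at 23.2-fold and its neighbour Omd, osteomodulin, at 15.5-fold. These 4 matrix genes had neither a mESC Pol II promoter peak nor an H2Bub1 peak in MEFs of either genotype.

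Of receptors and binding proteins, Unc5c, a netrin receptor, had a fold of 22.0. Ackr3, an atypical chemokine receptor, had 21.8, and Igfbp5, which binds insulin-like growth factors, had 20.4. Of transcription regulators, Ebf1 stood at 19.3-fold, Eya4 at 18.4-fold, Mab21l1 at 17.0-fold, Hoxd13 at 16.1-fold, Hoxa11 at 15.0-fold and Sox11 at 14.4-fold. Ass1, the arginine synthesis enzyme argininosuccinate synthase, had 18.98-fold, and Bfsp1, a lens filament protein, had 18.02-fold. Fat4 at 15.3-fold and Dchs1 at 15.2-fold encode atypical cadherins that bind each other as a receptor and ligand pair of planar cell polarity, and both were without a KO peak. The rest of the 20 highest were Lrrc17 (16.1), the collagen triple helix protein Cthrc1 (14.5) and Fam20a (14.3). For Dchs1 the nearest KO peak was 8990 bp from the TSS and lay in the gene body, whereas for Sox11 it was 873104 bp away.

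**Figure D2:**
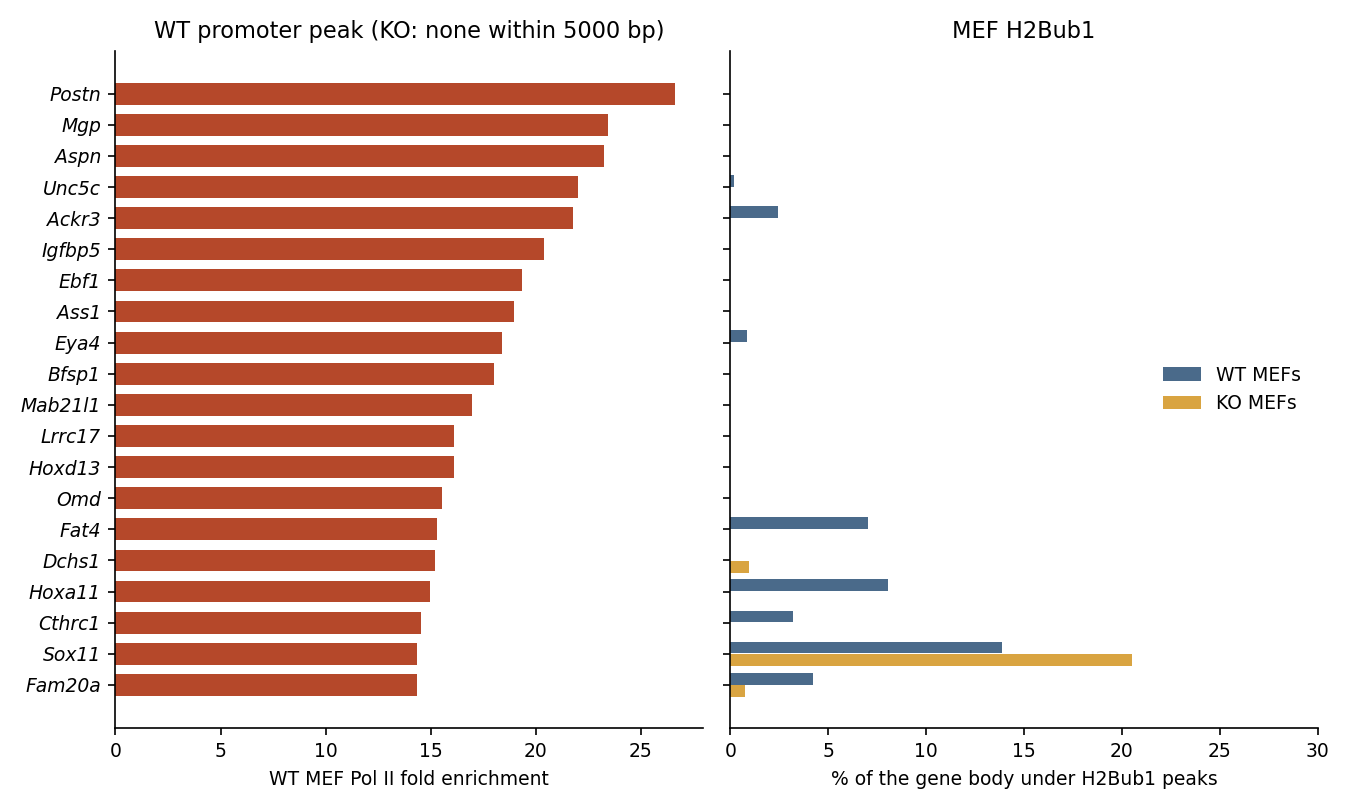
The 20 promoters of highest WT fold among those without a KO peak. Left, WT MEF Pol II fold; right, percent of the gene body under H2Bub1 peaks in WT and KO MEFs. Folds run from 26.6 at Postn to 14.3 at Fam20a, and a KO H2Bub1 peak is drawn for Dchs1, Sox11 and Fam20a.

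Genes of matrix, adhesion, signalling and developmental transcription control were frequent among the 778. Over the 606 promoters with a WT MEF peak in these lists, 152 (25.1%, interval 21.7% to 28.7%) had no KO peak, against 6.77% of all promoters. Many of these genes had weak WT peaks, and weak peaks were missing more often, so the shares were also taken within groups of WT fold. In the lowest of the 5 groups, 108 of 228 list promoters (47.4%) had no KO peak against 28.5% of all promoters there, and in the 4 higher groups together 44 of 378 (11.6%) against 1.33%. Housekeeping lists stood on the other side: 9 of 494 promoters (1.82%) of ribosomal, proteasome, Zfp zinc finger and cell cycle genes were without a KO peak. Most of these promoters were above the lowest group of WT fold, where 1.33% of all lacked one. There the 4 lists stood at 0 of 74, 0 of 38, 1 of 265 and 0 of 52. In the lowest group they stood at 0 of 1, 1 of 4, 7 of 49 and 0 of 11. The lists were chosen with earlier results of these data known, so these shares are a description.

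**Figure D3:**
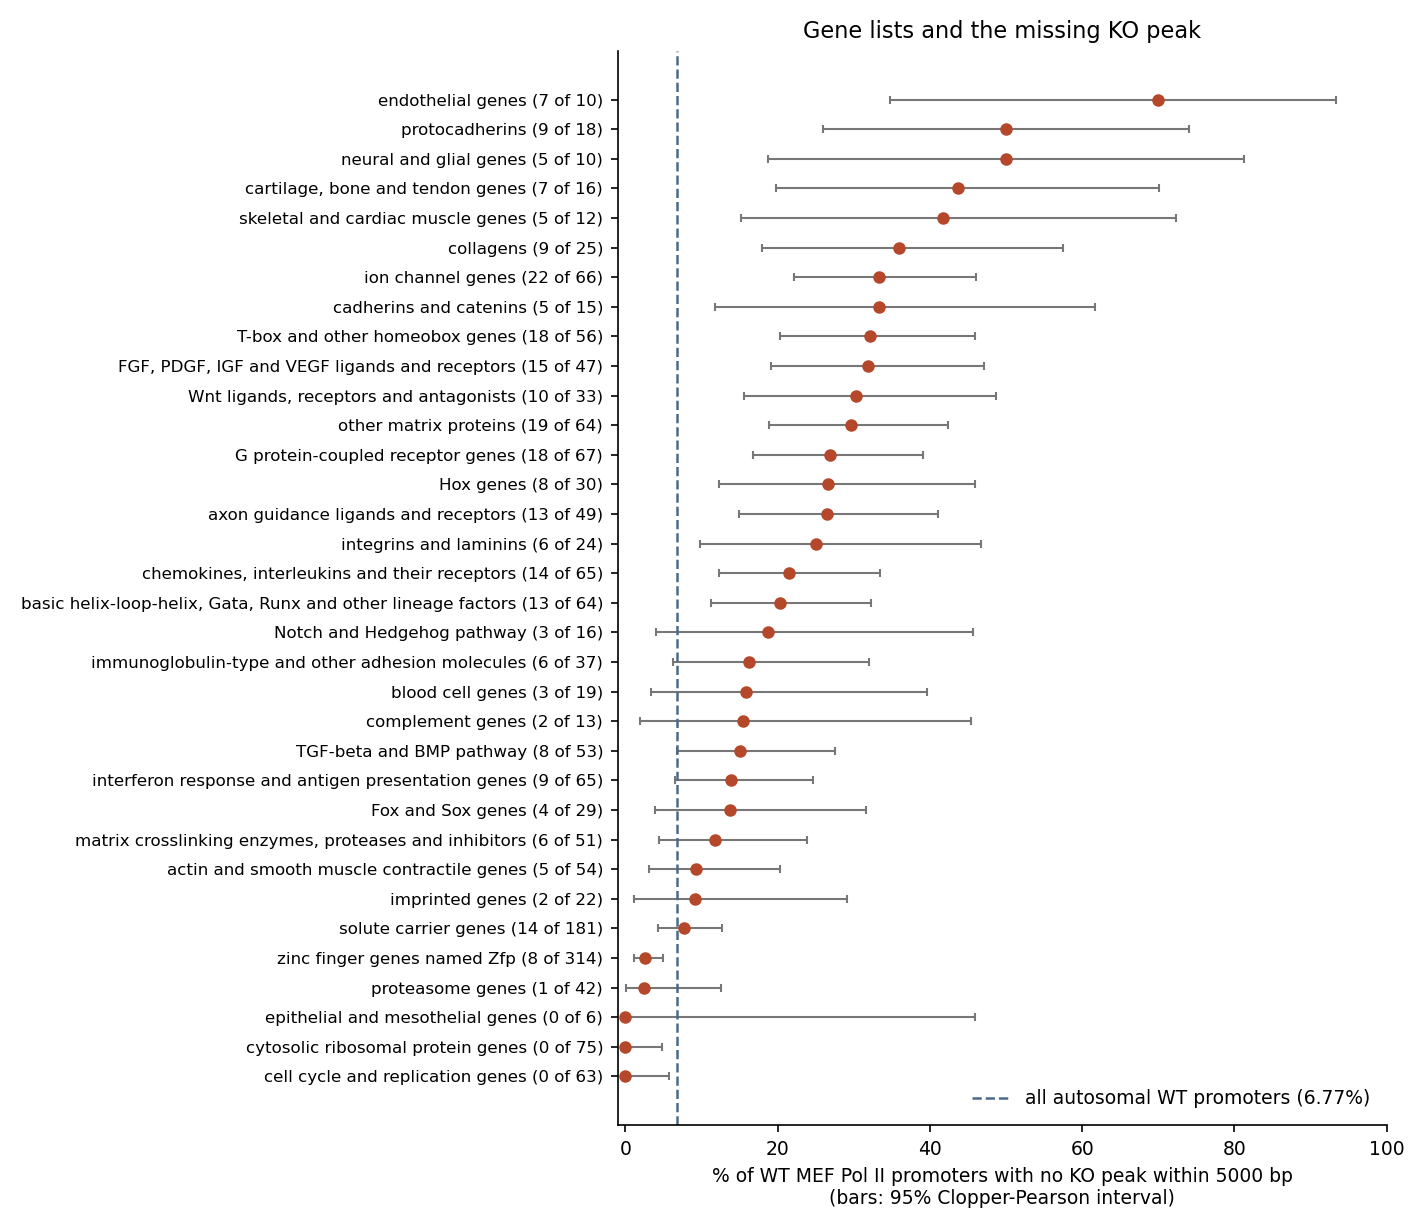
Percent of the WT MEF Pol II promoters of each gene list that had no KO peak within 5000 bp, with 95% Clopper-Pearson intervals and the numbers in brackets; the dashed line is the 6.77% of all autosomal promoters with a WT peak. Endothelial genes, at 7 of 10, are at the top, and ribosomal protein and cell cycle genes, at 0 of 75 and 0 of 63, at the bottom.

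Collagen genes were without a KO peak at 9 of 25 promoters. Col6a3 had a WT fold of 13.9, Col11a1 10.9, Col5a3 9.86 and Col6a1 7.93, and the others were Col14a1, Col18a1, Col8a2, Col2a1 and Col24a1, at 2.46 to 5.08. Col6a3 and Col6a1 encode chains of the beaded microfibril collagen, Col5a3 and Col11a1 chains of fibril-nucleating collagens. Of the other matrix proteins, 19 of 64 were without a KO peak, including Eln (elastin, 12.6), Nid1 (the basement membrane protein nidogen, 8.46) and Fbln1 (5.85) beside Postn, Mgp, Aspn and Omd. Of enzymes that crosslink or cut the matrix, 6 of 51 were without one (11.8%, interval 4.4% to 23.9%), an interval that includes the 6.77% of all promoters. In the lowest group of WT fold 5 of 17 were, against 28.5% of all, and above it 1 of 34, against 1.33%. The 6 were led by Mmp28 (7.88), Mmp19 (7.26), Fap (7.12) and Adamts17 (5.31). The fibril collagens Col1a1 and Col1a2 kept their peaks, at lower folds in KO MEFs: 38.3 in WT and 23.9 in KO for Col1a1, and 43.3 and 19.4 for Col1a2.

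Adhesion genes followed. Integrins and laminins were without a KO peak at 6 of 24 promoters, with Itga9 (9.56), Itga11, a collagen receptor subunit (9.33), Itgb3 (8.36) and Itga8 (5.06) at the top. Cadherins and catenins were without one at 5 of 15 (Cdh10, Cdh13, Cdh6, Ctnna2 and Ctnnd2, folds 4.33 to 9.22) and protocadherins at 9 of 18. Pcdh10 led the protocadherins at 8.43, and 6 more of them, Pcdhga3, Pcdhgb1, Pcdhgb2, Pcdhga5, Pcdhga6 and Pcdhga7, start at neighbouring first exons of 1 gene cluster on chromosome 18 that share their downstream exons. Immunoglobulin-type and other adhesion genes were without a KO peak at 6 of 37 (16.2%, interval 6.19% to 32.01%), led by Adgrl3 (13.7) and Igsf10 (12.1). This interval includes the 6.77% of all promoters. In the lowest group of WT fold the list stood at 4 of 15, against 28.5% of all, and above it at 2 of 22, against 1.33%.

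In the signalling lists, ligands, receptors and antagonists all contributed. Axon guidance genes had 13 of 49 promoters without a KO peak, including the semaphorin Sema6a (13.9), the netrin Ntn4 (13.4) and the Slit receptor Robo2 (9.58) beside Unc5c. Wnt pathway genes had 10 of 33, of which the Wnt-potentiating ligands Rspo2 (10.97) and Rspo3 (10.6) were the strongest, followed by Dkk3 (7.91) and the Wnt antagonist Dkk2 (6.50). The feedback target Axin2 (3.54) and its effector Lef1 (3.77) were in the same list. FGF, PDGF, IGF and VEGF genes had 15 of 47, with Fgf7 (8.89), Pdgfrl (7.48) and Angpt1 (6.58) after Igfbp5. TGF-beta and BMP genes had 8 of 53 (15.1%, interval 6.7% to 27.6%), among them the receptor Bmpr1b (9.31), the activin binder Fstl3 (7.18) and the activin subunit Inhbb (5.70). Notch and Hedgehog genes had 3 of 16 (18.8%, interval 4.0% to 45.6%), namely Notch3, the Notch ligand family member Dll3 and the target Hey2. The intervals of the TGF-beta and BMP list and of the Notch and Hedgehog list include the 6.77% of all promoters.

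Transcription factor genes were without a KO peak at 43 of 179 promoters. Hox genes contributed 8 of 30, of which 7 were the 5′ genes Hoxd13 (16.1), Hoxa11 (15.0), Hoxa10 (13.3), Hoxa13 (8.42), Hoxd11 (7.92), Hoxd12 (6.59) and Hoxd10 (4.90), which pattern limbs and the posterior trunk. Hoxa9 (12.2) fell outside the rule by a KO peak 4943 bp away. T-box and other homeobox genes contributed 18 of 56, led by Tbx5 (7.55), which specifies the forelimb, Irx1 (7.39), Gsc (6.96) and Lmx1b (6.80), which specifies dorsal limb. Fox and Sox genes contributed 4 of 29, namely Sox11, Foxd1, Foxf2 and Sox8 (13.8%, interval 3.9% to 31.7%). This interval includes the 6.77% of all promoters. In the lowest group of WT fold the list stood at 2 of 7, against 28.5% of all, and above it at 2 of 22, against 1.33%. Of other lineage factors 13 of 64 were without a KO peak, led by Ebf1, Ebf3 (13.7), Osr2 (12.8) and Prdm16 (11.05), and they included Runx2, the osteoblast factor, at 5.15 and with a KO peak at another of its start sites.

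Genes of some cell types other than fibroblasts were also among the 778. Of 6 epithelial and mesothelial genes with a WT peak, 0 were, and the interval, 0% to 45.9%, includes the 6.77% of all. Of 10 endothelial genes with a WT peak, 7 had no KO peak: Erg (8.79), Clec14a (7.69), Flt4 (3.94), Flt1 (3.09), Ramp2 (3.05), Kdr (2.61) and Esam (2.36). The endothelial markers Cdh5, Tek, Tie1 and Emcn had no WT or KO promoter peak, and Pecam1 had one in KO MEFs alone, at 4.31. In smooth muscle and actin genes, 5 of 54 were without a KO peak (9.26%, interval 3.08% to 20.3%), an interval that includes 6.77%. In the lowest group of WT fold 3 of 7 were, against 28.5% of all, and above it 2 of 47, against 1.33%. The 5 were Cnn1 (9.98), Synpo2 (7.87), Actg2 (6.36), Synm (4.88) and Tns1 (4.06). Acta2 and Tagln kept theirs, at 31.6-fold in WT and 10.03-fold in KO for Acta2 and at 22.97-fold and 11.2-fold for Tagln. Skeletal and cardiac muscle genes had 5 of 12, cartilage, bone and tendon genes 7 of 16, neural genes 5 of 10 and blood cell genes 3 of 19 (15.8%, interval 3.4% to 39.6%, which includes 6.77%). Their WT folds were mostly low, with medians of 3.7, 3.7, 3.5 and 3.3, and all 5 muscle and 5 neural genes were in the lowest group of WT fold, at 5 of 8 and 5 of 7 there against 28.5% of all. Cartilage, bone and tendon genes stood at 6 of 8 in that group and 1 of 8 above it, and blood cell genes at 3 of 16 and 0 of 3. Of the 5 skeletal muscle markers none had a WT MEF peak, and Tubb3, the neural marker with one, kept it at 10.6-fold in WT and 3.24-fold in KO MEFs. The blood cell markers Spi1 and Tyrobp kept a peak, at 4.93 and 2.41 in WT and 8.42 and 6.30 in KO MEFs, and Csf1r had one in KO MEFs alone.

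Further lists of cell surface genes, 1 of which shares Adgrl3 with an adhesion list, ranged from 33.3% without a KO peak to 7.7%. Ion channel genes had 22 of 66 promoters without a KO peak, led by the calcium channel subunits Cacna2d3 and Cacna1h (both 8.71), Cacna1g (6.53) and Cacng7 (6.34). G protein-coupled receptor genes had 18 of 67, with Gpr27 (10.45), Adra1d (6.80) and Adgrg6 (6.02) after Adgrl3. Solute carriers stood at 14 of 181 (7.7%, interval 4.3% to 12.6%), an interval that includes 6.77%, although Slc7a11, the cystine transporter, had a WT fold of 12.4. Imprinted genes were without a KO peak at 2 of 22 (Rtl1 and Gnas, interval 1.1% to 29.2%), and proteasome genes at 1 of 42 (Psmd9, interval 0.060% to 12.6%). Both intervals include 6.77%. Zfp genes were without one at 8 of 314. No promoter of 75 ribosomal protein genes or 63 cell cycle genes with a WT peak was without one, and counts of 0 allow up to 4.8% and 5.7%.

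Some of the promoters were neighbours. Following the order of promoters with a WT peak along each chromosome, 19 runs of 3 or more consecutive promoters were all without a KO peak, holding 65 of the 778. The Hoxd run, from Hoxd13 to Hoxd10, spanned 23614 bp and the Hoxa run, Hoxa10, Hoxa11 and Hoxa13, 20026 bp. Other runs were Tes3-ps, Aspn and Omd, then Igfbp2, Igfbp5, Tns1 and Rufy4, the interferon genes Ifi44 and Ifi44l with Ptgfr, and Syt8 with the troponin genes Tnni2 and Tnnt3. The promoter after one without a KO peak was also without one in 91 of 757 cases (12.02%), against 7.17% after a promoter that kept its peak. Neighbouring genes are not independent, and 36 promoters shared their WT peak with another of the 778.

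In WT MEFs, Pol II peaks were also found within the bodies of these genes, beyond 1000 bp from the TSS, at 349 of 778 (44.9%), against 65.0% of genes that kept a KO promoter peak and 42.2% of all. The interval, 41.3% to 48.4%, includes the share of all genes, so the count is at the background. By group of WT fold the share was 40.1% against 47.5% in the lowest group, then 62.2% against 55.0%, 83.3% against 65.0%, 90% against 72.0% and 100% against 79.2%. The 4 groups above the lowest hold 82, 24, 10 and 6 of the genes, and the differences within groups were not tested. Postn had 18 WT body peaks, Rspo2 13, Dkk3 12 and Fat4 8, and none of these genes had a KO body peak. KO body peaks were present in 115 of the 778 genes (14.8%), all beyond 5000 bp as the rule requires, where 30.1% of genes that kept a promoter peak and 20.6% of all had one, and in 52 of these a KO peak lay within 1000 bp of another annotated TSS. The most WT body peaks were counted in Phldb2 (63, with 41 in KO), Tbx15 (58, with 1 in KO), Tns1 (40, with 29 in KO), Pcdhga3 (21, with 7 in KO) and Pcdhgb1 (20, with 7 in KO), all of which hold or overlap other start sites. Genes without a KO peak had a median length of 32421 bp, against 22679 bp for those that kept one.

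H2Bub1 was not used by the rule, but KO Pol II was, so the KO H2Bub1 shares are not independent of the choice. Along the gene bodies of the 778 it was sparse in both genotypes. In WT MEFs an H2Bub1 peak touched the body of 76 genes (9.77%, interval 7.77% to 12.1%). The share was 6028 of the 10576 genes that kept a KO promoter peak and 31.7% of all autosomal genes. In KO MEFs an H2Bub1 peak touched 147 (18.9%, interval 16.2% to 21.8%), against 94.0% of genes that kept their peak and 54.3% of all. No H2Bub1 peak was found in either genotype at 609 of the 778 (78.3%), against 5.90% of genes that kept their peak and 45.5% of all. The share of the body under H2Bub1 peaks was larger in KO for 143 of the 778 (18.4%), where it was larger for 53.8% of all 20807 autosomal genes, and smaller for 26 (3.34%), where it was smaller for 0.529% of all. A peak in KO alone was found in 93 genes (11.95%, against 22.9% of all) and a peak in WT alone in 22 (2.83%, against 0.293% of all). The WT calls behind these last values were weak: at a -log10 q of at least 3, 4 of the 778 genes had a WT H2Bub1 peak in place of 76.

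The share with KO H2Bub1 was also lower within each group of WT Pol II fold, although folds within the lowest group differed, with a median of 4.11 in the 778 and 5.59 in promoters that kept their peak. In the lowest group of WT fold, 18.9% of the 656 genes had a KO H2Bub1 peak against 80.2% of the 1532 genes there that kept a KO promoter peak, and in WT MEFs the shares were 7.93% and 21.8%. In the next group up, 19.5% of 82 stood against 92.6% in KO MEFs, and 12.2% against 45.5% in WT MEFs. In the highest 3 groups, KO H2Bub1 peaks were present at 6 of 24, 1 of 10 and 0 of 6 genes, against 96.9%, 98.0% and 97.7%. Each share rests on 1 KO H2Bub1 library and 1 KO Pol II library, and the differences between the 2 sets were not tested.

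**Figure D4:**
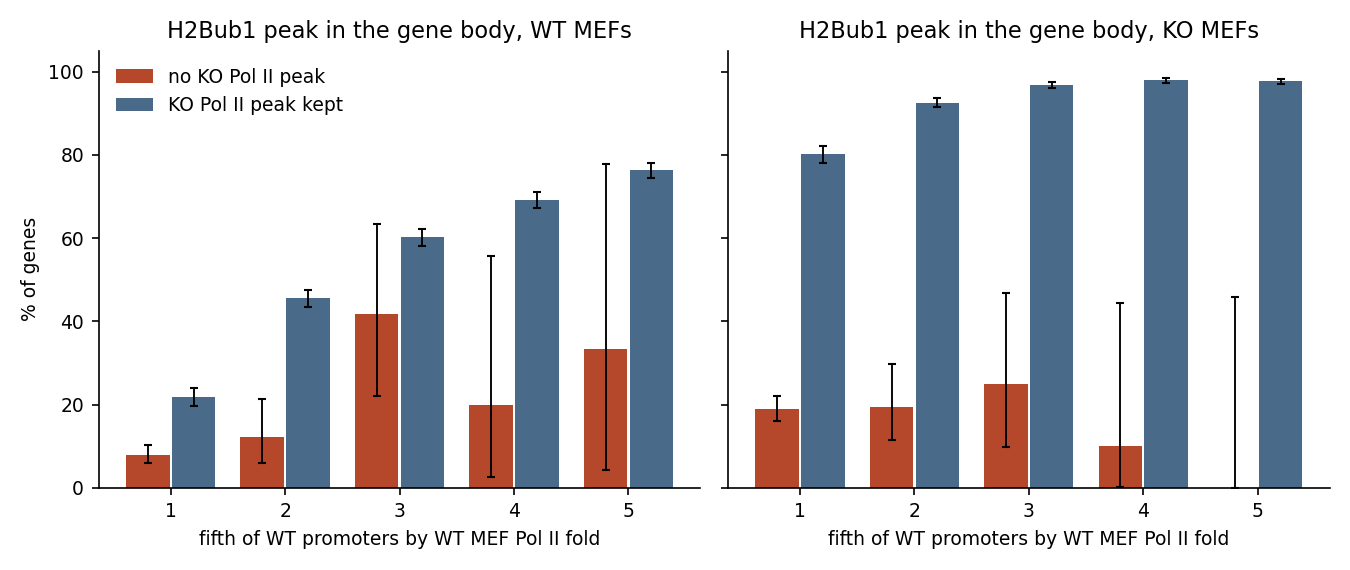
Percent of genes whose body is touched by an H2Bub1 peak, in WT (left) and KO MEFs (right), by group of WT Pol II fold from lowest (1) to highest (5), for genes without a KO Pol II promoter peak and for those that kept one; error bars are 95% Clopper-Pearson intervals. In KO MEFs genes that kept their peak are at 80.2% to 98.0%, and those without one at 0% to 25%.

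The H2Bub1 share of single genes went either way, and the WT values rest on a list in which 4 of 76 genes keep a peak at a -log10 q of at least 3. Hoxa11 had 8.04% of its body under H2Bub1 in WT MEFs and 0% in KO MEFs, Fat4 7.05% and 0%, Cthrc1 3.22% and 0%, and Fam20a 4.25% and 0.72%. Of genes with weaker Pol II peaks, Inhbb went from 17.7% to 0% and Tbx15 from 22.4% to 1.94%. In the opposite direction, Sox11 went from 13.8% to 20.5% and Hoxa10 from 0% to 47.3%.

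Pol II peaks were present in the KO body of 74 of the 147 genes with KO H2Bub1, and 85 of the 147 lay within 5000 bp of another gene or overlapped one. Over all 778, 432 (55.5%) were at least 5000 bp from another gene, as were 46.9% of all autosomal genes. The covered share reached 50% in 23 genes. The 5 highest without WT H2Bub1 were Gm6096 (100%), Evi2 (79.3%), Gm49384 (67.7%), Evi2a (67.5%) and Mterf1b (64.5%), and all but Mterf1b overlap another gene. The largest covered lengths were those of Pcdhga3, Pcdhgb1, Pcdhgb2, Pcdhga5 and Pcdhga6, from 68.9% to 76.5% of the body in KO MEFs against 7.81% to 9.71% in WT MEFs, which count the same downstream stretch of the cluster. Gsc had 0% in WT and 51.8% in KO MEFs, and no other gene lay within 5000 bp of it.

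In mESCs, most of the 778 promoters had no Pol II peak in the lists, which were shorter than those of MEFs (17074 peaks in WT and 11963 in KO mESCs). A Pol II promoter peak was present in WT mESCs at 138 (17.7%, interval 15.1% to 20.6%), against 64.0% of promoters that kept their peak in KO MEFs and 35.3% of all, and in KO mESCs at 101 (13.0%) against 59.5% and 32.1%. At the 138 the WT mESC fold had a median of 3.58, compared with 4.49 at the promoters that kept their MEF peak. The share with a WT mESC Pol II peak was lower than at the promoters that kept their peak in all 5 groups of WT MEF fold, for example 118 of 656 (17.99%) against 33.5% in the lowest. H2Bub1 touched the gene body of 360 (46.3%) in WT mESCs and 400 (51.4%) in KO mESCs, against 83.6% and 92.5% of those that kept their peak and 55.7% and 62.1% of all genes. In the lowest group of WT MEF fold H2Bub1 was at 47.1% against 69.8% in WT mESCs and at 52.7% against 83.6% in KO mESCs.

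Of the 138 promoters occupied in WT mESCs, 74 (53.6%, interval 44.9% to 62.1%) had no KO mESC peak within 5000 bp, and 61 had a KO mESC promoter peak. Over all promoters with a WT mESC peak the share without one was 20.2%, and over those that kept their peak in KO MEFs it was 17.5% of 6768. The mESC libraries were not used by the rule. Weak WT mESC peaks were missing more often in both sets. Ranked by WT mESC fold in 5 groups, the shares were 63.3% of 60 against 32.8% in the lowest, 68.8% of 32 against 33.1%, 48.0% of 25 against 16.9%, 15.4% of 13 against 7.78% and 0 of 8 against 0.417%. The differences between the 2 sets were not tested, and the highest 2 groups hold 13 and 8 of the 138. These 74 promoters were 9.51% of the 778. Such losses made up 7.12% of all autosomal promoters and 11.2% of those that kept their MEF peak. The 74 were 5.00% of the 1481 autosomal promoters whose Pol II peak was missing in KO mESCs.

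**Figure D5:**
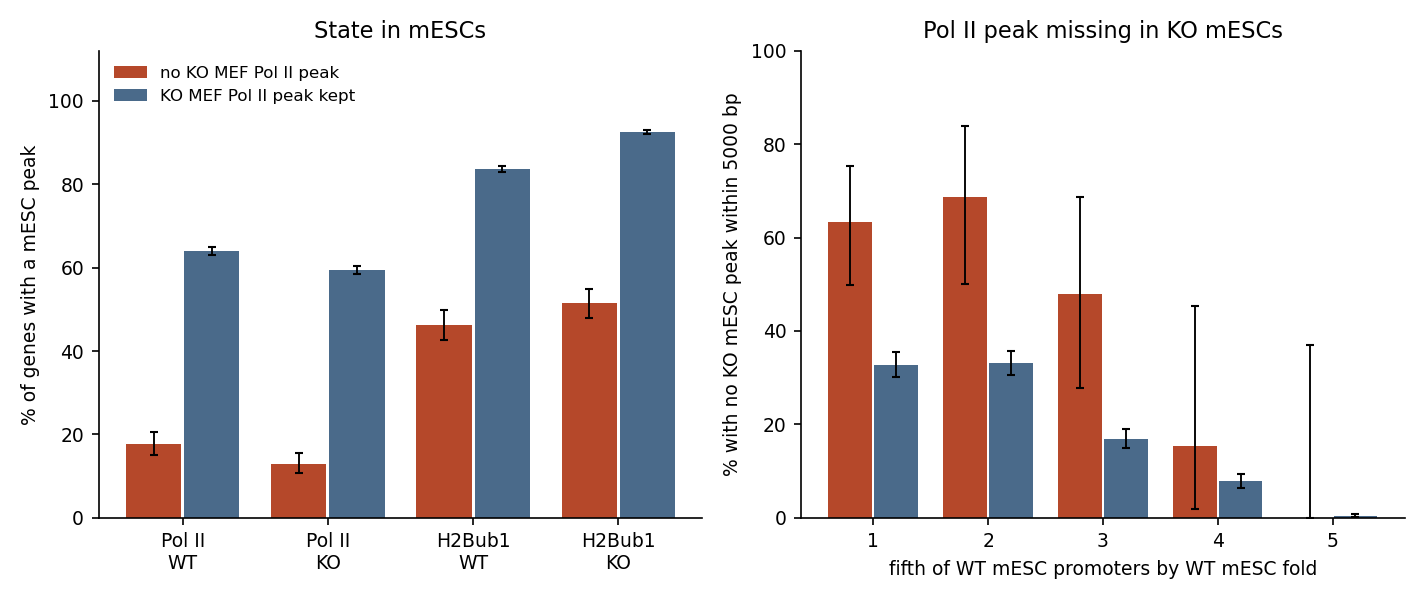
Left, percent of genes with a mESC Pol II promoter peak or a mESC H2Bub1 gene-body peak, for genes without a KO MEF Pol II peak and for those that kept one. Right, of promoters with a WT mESC Pol II peak, the percent without a KO mESC peak within 5000 bp by group of WT mESC fold; bars are 95% Clopper-Pearson intervals. At the left 17.7% stands against 64.0% for Pol II in WT mESCs, and at the right 63.3% against 32.8% in the lowest group.

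The promoters with the strongest WT mESC peaks kept them in KO mESCs. A4galt, a glycosphingolipid galactosyltransferase, had a fold of 14.3 in WT MEFs, its nearest KO MEF peak 43865 bp away, and 8.18 and 8.58 in WT and KO mESCs. Zic5, a zinc finger factor of neural development, had 7.72 and 6.71 in mESCs and 3.35 in WT MEFs. Trim71, a ubiquitin ligase of stem cells, had 7.50 and 7.32, Fbxo27 7.33 and 6.14, and Rap1gap 7.05 and 3.93. In each of these 5 the peak was missing in KO MEFs and present in KO mESCs. By contrast, Bfsp1 (4.73), Dll3 (4.57), Cacng7 (4.12), Gnas (4.04), Isl1 (3.87), Sox11 (3.73), Lmx1b (3.59) and Sox8 (3.53) had a WT mESC peak and none within 5000 bp in KO mESCs.

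The sequence around the start sites also set these promoters apart from the occupied promoters that kept their peak. In the 300 bases from 250 before to 50 after the TSS, the ratio of observed to expected CpG had a median of 0.51 in the 778, against 0.78 in those that kept a KO peak and 0.54 in all 20807. G or C made up a median of 57.3% against 60.7%. The ETS site CCGGAAG, on either strand, was in 3.08% of the 778 (interval 1.99% to 4.56%), in 19.01% of the promoters that kept their peak and in 11.03% of all. Within the lowest group of WT fold the shares were 3.35% and 13.1%. The GC box GGGCGG, which Sp1-type factors recognise, was in 47.7% against 64.7% and in 43.7% of all.

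TATAAA or its reverse was in 11.7% of the 778 (interval 9.52% to 14.2%), in 6.71% of those that kept their peak and in 12.7% of all promoters. From the highest group of WT fold down, it was in 4 of 6, 4 of 10, 1 of 24, 9 of 82 and 73 of 656 promoters. Over the 4 groups above the lowest it was in 14.8% of the 778 and 6.79% of those that kept their peak. TATAAA on the gene's own strand, starting 40 to 20 bases before the TSS, the usual place of a TATA box, was rarer. It was in 1.67% of the 778, 0.785% of those that kept their peak and 2.48% of all. At this place it was in 10 of 656, 2 of 82, 0 of 24 and 0 of 10 in the lowest 4 groups of WT fold. The rise with WT fold over the whole window was thus not seen there. The AP-1 site TGACTCA was in 5.27% against 2.91% (4.52% of all), the E-box CAGCTG in 19.02% against 13.8% (15.5% of all) and the TEAD site GGAATG in 15.4% against 11.5% (13.5% of all). The RUNX site TGTGGT was in 12.2% against 11.8% and in 15.4% of all. These are counts of letters in fixed windows and carry no test of binding.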

How the data were processed

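Per the submitters' processing notes and the study's methods, reads were aligned to mm10 with Bowtie 1.0.0 and the authors called peaks in each library with MACS2 2.1.1.20160309, narrow for Pol II and broad for H2Bub1; the MACS2 control and threshold are not given in the sources used here. The deposited peak lists give the position of each peak, its fold enrichment (a ratio over local background) and its -log10 p and q values, as the authors' peak caller wrote them. They hold no read counts, so depth and the precision it gives are unknown, and folds are not scaled between libraries.

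A gene's TSS was the 5′ end of its GENCODE M21 record; a promoter's fold was that of its strongest peak within 1000 bp. The gene body began 1000 bp downstream, and an H2Bub1 call needed 1 bp of a peak. Sequences came from the GRCm38.p6 genome. Python 3.11.15, pandas 2.3.3 and scipy 1.17.1 gave shares with 95% Clopper-Pearson intervals; with 1 library per group there is no test. The matching was checked on simulated peaks (100% of 200 planted losses recovered over 20807 genes). All simulated peaks had the same size and fold and lay over the TSS, with losses planted away from other simulated promoters. Recovery was thus fixed by design: it checks the code and not weak peaks or crowded genes.

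The promoters and the 34 gene lists were chosen with earlier results of these data known. Named genes were the 20 highest WT folds, up to 4 of the highest in each list (all in lists of 5 or fewer), the 5 with most body peaks, most KO H2Bub1 or highest mESC fold, and the 3 nearest each limit; further names were chosen after their values were seen. Alternatives varied the peak threshold, the number of peaks, windows, overlap, start sites, neighbours, WT fold and the H2Bub1 call.

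One item is not reported here.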

Additional observations from a re-analysis of the deposited data

Results flagged for a closer look

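Pol II peaks moved in opposite directions in MEFs and mESCs at 37 of the 778 promoters: they had a peak in WT but not in KO MEFs, and a promoter peak in KO mESCs with no WT mESC peak within 5000 bp. The share, 4.76% (interval 3.37% to 6.50%), compares with 4.28% of all 20807 autosomal promoters that had a peak in KO mESCs alone and with 7.18% of those that kept their MEF peak. The interval includes the share of all promoters, so the count is at the background and is not a result about the 778. Adam22 had the highest KO mESC fold of the 37, at 6.21, with 5.27 in WT MEFs. Bhlhe22 had 5.72 and 6.34, and Ece2 had 4.73 and 7.46. With 1 library per group, the difference in direction was not tested.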

How the results depend on the processing

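No paired analysis was possible because each group held 1 library and no test was made. Of 70 alternative values, 29 stayed within the interval of the reported value or within 1.5 times a count, and 41 did not. The number of promoters ranged from 592 to 921 over 11 settings of threshold, window, distance and start site, and was 432 for genes at least 5000 bp from another gene. With equal numbers of WT and KO peaks, 5.91% of promoters lacked a KO peak and their median WT fold was 4.72. Among genes away from others, H2Bub1 peaks were in 6.48% in WT and 14.4% in KO MEFs, and the median CpG ratio was 0.56.

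By group of WT fold from lowest to highest, the share without a KO peak was 28.5%, 3.57%, 1.04%, 0.435% and 0.261%, and the share with a WT body peak 40.1%, 62.2%, 83.3%, 90% and 100%. WT H2Bub1 stood at 12.2%, 41.7%, 20% and 33.3% in the upper 4 groups and KO H2Bub1 at 25%, 10% and 0% in the upper 3. TATAAA stood at 4.17%, 40% and 66.7% in the upper 3 groups, and the CpG ratio at 0.58 in the second and 0.40 in the highest. The developmental lists stood at 11.6% in the upper 4 groups.

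WT body peaks were in 30.2% with the body taken from 5000 bp and in 48.6% of genes of at least 10000 bp. With 10% of the body covered, H2Bub1 was called in 1.93% in WT and 11.4% in KO MEFs, and at a -log10 q of at least 3 in 0.514% and 10.2%. A mESC peak within 5000 bp was found at 21.2% in WT and 15.6% in KO. The share without a KO mESC peak, split by WT mESC fold after seeing the data, was 63.3%, 68.8%, 15.4% and 0% in the lowest 2 and highest 2 groups. The cause of these changes was not tested. Depth is unknown, each value rests on 1 library, and a weak peak can be missing by the threshold alone.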

Other observations

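Genes of the immune response were also among the promoters without a KO MEF peak. Of 65 promoters of chemokines, interleukins and their receptors with a WT MEF peak, 14 (21.5%, interval 12.3% to 33.5%) had none, against 6.77% of all. In the lowest group of WT fold 10 of 31 had none, near the 28.5% of all there. Above it 4 of 34 had none, against 1.33%. After Ackr3, the 14 were led by Tnfrsf11b, the osteoprotegerin gene (WT fold 10.4), the neutrophil attractant Cxcl5 (9.89) and the receptor Il20ra (7.94). Interferon response and antigen presentation genes were without a KO peak at 9 of 65 (13.8%, interval 6.5% to 24.7%), an interval that includes 6.77%, with Ifit3b (10.6), Gbp3 (10.51), Ifi44 (7.19) and Ifit3 (5.31) at the top. Of 13 complement genes, 2 had none (15.4%, interval 1.92% to 45.4%), an interval that also includes 6.77%: Masp1 (4.31) and Cfb (2.89), both in the lowest group of WT fold, at 2 of 11 there against 28.5% of all. Ifit3 and Ifit3b are near-identical copies, so reads can be shared between them.

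The share of WT promoters without a KO peak ranged over the 19 autosomes from 3.10% on chromosome 19 to 11.5% on chromosome 18, where the protocadherin cluster lies.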
